A study of Mus musculus with 6 samples.

Results

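Among the 25184 genes with a row in the table of RNA counts from cultured mouse hepatocytes are 9 members of a set of carriers that move succinate, citrate or related acids and anions. They were chosen by name, with earlier results of these data known, and the rule itself uses no measured value. They comprise the sodium-coupled dicarboxylate and citrate carriers of the plasma membrane (Slc13a2, Slc13a3 and Slc13a5), the proton-linked monocarboxylate carrier Slc16a1, the aromatic amino acid carrier Slc16a10, the organic anion carrier Slc22a7, and the mitochondrial dicarboxylate (Slc25a10), citrate (Slc25a1) and oxoglutarate (Slc25a11) carriers. The hepatocytes came from the livers of chow-fed mice, were cultured overnight on collagen, and were sequenced as 6 stranded mRNA libraries. The control group was 3 Sucnr1 fl/fl libraries (replicates 1, 2 and 3), in which both copies of the succinate receptor gene Sucnr1 are floxed and no Cre is expressed. The Hep-Sucnr1 KO group, below also called knockout, was 3 libraries (replicates 3, 4 and 5) with the same floxed alleles plus 1 copy of Alb-Cre. The study describes the albumin promoter that drives this Cre as specific to hepatocytes. It does not report whether the other liver cell types kept Sucnr1. No group carried Alb-Cre without floxed alleles, so Cre itself and the loss of Sucnr1 cannot be told apart. RNA of Sucnr1 fl/fl replicate 1 and Hep-Sucnr1 KO replicate 3 was extracted on day 1, and RNA of the other 4 libraries on day 2.

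Succinate and citrate carry a charge at the pH of the cell and cross membranes only through carriers. Inside mitochondria, succinate is made and oxidized in the tricarboxylic acid (TCA) cycle; the dicarboxylate carrier exchanges it or malate for phosphate, the citrate carrier exports citrate to the cytosol in exchange for malate, and the oxoglutarate carrier exchanges oxoglutarate for malate as a part of the malate-aspartate shuttle. In the cytosol, exported citrate is split into acetyl-CoA for the synthesis of fatty acids and sterols. At the plasma membrane, the SLC13 carriers bring dicarboxylates and citrate into the cell with sodium, and the monocarboxylate carriers move lactate, pyruvate and ketone bodies with protons. The succinate receptor is a G protein-coupled receptor that senses succinate outside the cell, so these carriers stand on either side of the pool that it reads. The comparison of genotypes therefore asks whether knockout hepatocytes held other amounts of the transcripts of these carriers. The carriers bring succinate and its relatives in, out and across the inner mitochondrial membrane.

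The library totals lay between 30504248 and 38770694 counts. Sucnr1 itself was at 3.40 to 6.71 CPM (per-million counts, with library sizes scaled by TMM) in Sucnr1 fl/fl libraries and at 0.152 to 2.66 CPM in knockout libraries, and the groups did not overlap (log2 fold change −2.23, SE 0.52, FDR 0.998 by edgeR's quasi-likelihood test and adjusted p of 0.0328 by DESeq2). By library, Sucnr1 was at 2.66, 0.827 and 0.152 CPM in knockout replicates 3, 4 and 5, so replicate 3 kept the most. On day 1 the knockout library was at 39.6% of the control library, and on day 2 the knockout mean was at 14.1% of the control mean. All 10 hepatocyte markers were detected in every library, with a summed level between 78560 and 116400 CPM. Markers of other liver cells were present at much lower summed levels, between 36.5 and 155.5 CPM for the 10 Kupffer cell markers, between 40.3 and 113 CPM for the 10 sinusoidal endothelial markers and between 4.79 and 25.02 CPM for the 10 stellate cell markers. The highest of these sums were those of the 8 cholangiocyte markers, between 363 and 662 CPM. Nearly all of that sum was Spp1 (266 to 526 CPM) and Sox9 (83.2 to 122 CPM). No other marker of that list exceeded 8.41 CPM (Cldn4), and Krt19 was at 0.118 to 0.890 CPM. The 9 neutrophil and erythroid markers summed to between 74.1 and 118 CPM. Most of that was Alas2 (71.2 to 101.5 CPM), and no other marker of that list exceeded 4.81 CPM (Hbb-bs). In bulk RNA, a smaller number of cells of a type and less RNA per cell cannot be told apart. Among genes that mark the position of a hepatocyte in the lobule, knockout replicates 4 and 5 stood apart from the other libraries in the pericentral ones. The summed level of 10 landmarks of pericentral hepatocytes, the cells around the central vein, was 5326 CPM in replicate 4, 1304 CPM in replicate 5 and 2001 to 3076 CPM in the other 4 libraries. That of 10 landmarks of periportal hepatocytes was 4114 and 6488 CPM in replicates 4 and 5, close to the range of 4205 to 6146 CPM in the other 4. Genotype results of the members and lists whose direction turned without knockout replicate 4 or 5 are given with and without that library.

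To show where transcription of the carriers begins, the 300 bases around the start site (250 before it and 50 after it, from RefSeq on GRCm38.p6) are printed for 4 members that the results turn on. These are Slc13a3, the member that varied most between libraries, Slc13a2, the other dicarboxylate cotransporter of the family and the least abundant member, Slc25a1, the most abundant, and Slc25a11, the steadiest. Capitals mark matches on either strand to the E-box (CACGTG), the core of the xenobiotic response element (GCGTG), the GC box (GGGCGG), the CCAAT box (CCAAT) and the TATA box (TATAAA). The windows are at chr2:165473148-165473447, chr11:78422185-78422484, chr16:17928170-17928469 and chr11:70646990-70647289 in that order, all on the minus strand.
Slc13a3: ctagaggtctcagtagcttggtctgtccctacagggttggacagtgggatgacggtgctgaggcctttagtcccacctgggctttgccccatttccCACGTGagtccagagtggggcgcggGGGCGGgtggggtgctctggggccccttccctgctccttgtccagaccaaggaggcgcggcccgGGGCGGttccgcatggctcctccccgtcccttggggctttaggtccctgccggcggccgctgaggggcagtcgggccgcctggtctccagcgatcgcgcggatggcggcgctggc
Slc13a2: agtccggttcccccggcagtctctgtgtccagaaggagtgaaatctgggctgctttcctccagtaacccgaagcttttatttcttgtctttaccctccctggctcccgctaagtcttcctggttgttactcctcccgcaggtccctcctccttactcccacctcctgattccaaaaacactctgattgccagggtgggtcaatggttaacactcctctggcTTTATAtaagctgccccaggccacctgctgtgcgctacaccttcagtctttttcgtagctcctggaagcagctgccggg
Slc25a1: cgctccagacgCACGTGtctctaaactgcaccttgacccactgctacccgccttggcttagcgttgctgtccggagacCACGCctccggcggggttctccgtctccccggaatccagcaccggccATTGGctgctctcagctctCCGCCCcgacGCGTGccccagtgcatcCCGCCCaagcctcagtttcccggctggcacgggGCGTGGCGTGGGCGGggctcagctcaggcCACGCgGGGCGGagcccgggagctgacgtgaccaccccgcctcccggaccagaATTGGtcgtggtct
Slc25a11: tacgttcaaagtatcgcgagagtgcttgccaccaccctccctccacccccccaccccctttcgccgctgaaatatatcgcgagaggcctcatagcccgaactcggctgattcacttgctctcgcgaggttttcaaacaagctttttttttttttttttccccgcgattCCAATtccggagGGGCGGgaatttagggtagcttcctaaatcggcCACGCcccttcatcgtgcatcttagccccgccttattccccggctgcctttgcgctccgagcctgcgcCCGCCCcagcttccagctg

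The window of Slc13a2 differed from the others in its motifs. It held a TATA box match, read on the opposite strand, that began 29 bases before the start, and it was the only one of the 4 with no GC box. TATA box matches occurred in 13.6% and GC box matches in 35.7% of the 32851 mouse promoter windows of this length. Its GC content was 54.3%, against 69.3% for both Slc13a3 and Slc25a1 and 57% for Slc25a11, where the median of all windows was 52.7%. The windows of Slc13a3 and Slc25a1 each held an E-box, 154 and 239 bases before the start, a motif found in 7.15% of all windows. Slc25a1 also held 5 matches to the xenobiotic response element core, which occurs in 32.4% of all windows, and 1 of them shares a base with a GC box. Searches for the cyclic AMP response element (TGACGTCA, 1.79% of all windows), a TCF/LEF motif (CTTTGAT, 3.73%) and an HNF4 motif (CAAAGTCCA, 0.475%) found no match in the windows of any of the 8 members matched in the table. Slc13a5 had 2 such windows, and none was found for Slc22a7. A match is a description of letters and was not tested as a binding site.

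**Figure D1:**
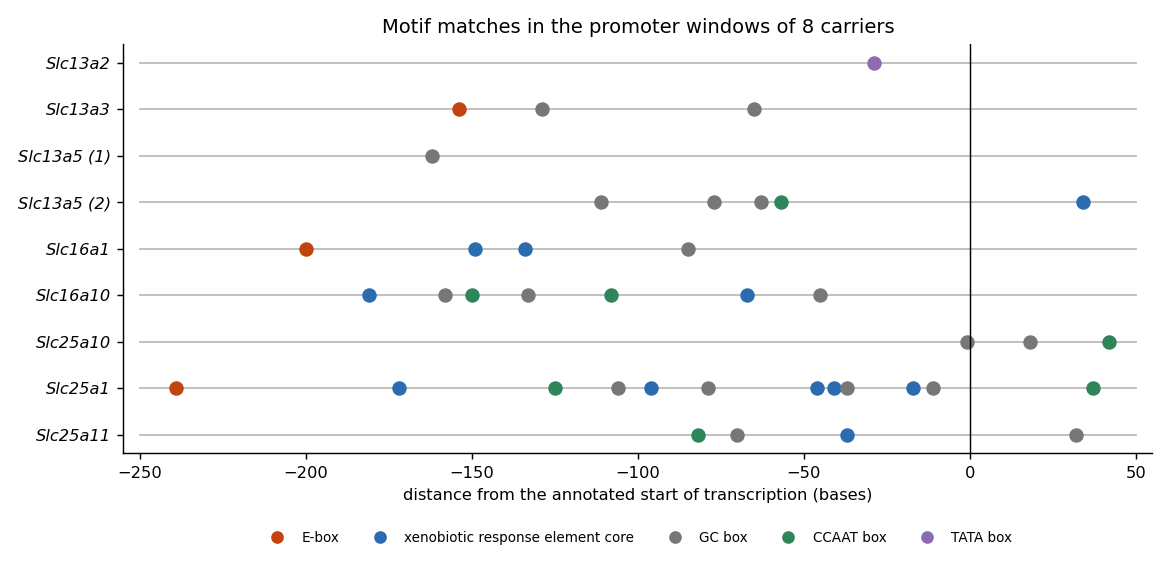
Positions of motif matches (dots, coloured by motif, at the first base of the match) in the 9 promoter windows of 8 carriers, on an axis of bases from the annotated start of transcription. Slc13a2 shows only the TATA box match 29 bases before the start, and Slc25a1 has the most matches.

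Compared per transcript length, the 9 carriers spanned a wide range of levels, with the mitochondrial citrate carrier at the top and the low-affinity dicarboxylate carrier at the bottom. In TPM (per-million transcripts, from the exon length of each gene), the means over the 6 libraries were 125 for Slc25a1, 56.9 for Slc16a1, 37.8 for Slc25a10, 33.3 for Slc22a7 and 28.2 for Slc25a11. They were 17.8 for Slc16a10, 14.0 for Slc13a5, 2.05 for Slc13a3 and 0.825 for Slc13a2, so that the highest mean was 152 times the lowest. Slc25a1 ranked at place 4 of 39 mitochondrial carriers by mean TPM, after the adenine nucleotide carrier Slc25a5 (246 TPM), Slc25a47 (236 TPM) and Slc25a39 (180 TPM), and Slc25a10 and Slc25a11 ranked at 11 and 15. Slc16a1 ranked first of 16 monocarboxylate carriers, ahead of Slc16a6 (42.3 TPM). Among the SLC13 members, Slc13a5, the citrate carrier of the liver cell surface, was the most abundant.

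Neighbours in this order were compared within each library by a two-sided exact sign-flip test of the log2 TPM difference over the 6 libraries, whose smallest possible p is 0.0312. In 4 of the 8 neighbouring pairs the member with the higher mean was higher in all 6 libraries: Slc25a1 over Slc16a1 (2.21-fold), Slc16a1 over Slc25a10 (1.5-fold), Slc25a11 over Slc16a10 (1.64-fold) and Slc13a5 over Slc13a3 (10.3-fold). Each had an exact p of 0.0312, which was 0.0625 after adjustment over the 8 pairs, so no pair passed 0.05 after adjustment. The other 4 pairs did not differ beyond their spread: Slc25a10 was above Slc22a7 in 5 of 6 libraries (exact p = 0.406), and Slc22a7 above Slc25a11, Slc16a10 above Slc13a5 and Slc13a3 above Slc13a2 in 4 of 6 each (exact p of 0.5, 0.125 and 0.469). The order depends partly on the length that is assumed for each gene. With the longest annotated transcript as the length, Slc25a10 (56.6 TPM) stood above Slc16a1 (49.9 TPM) and Slc25a11 (30.6 TPM) was at the level of Slc22a7 (30.9 TPM), while Slc25a1 stayed highest at 142 TPM and Slc13a2 lowest at 0.723 TPM.

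**Figure D2:**
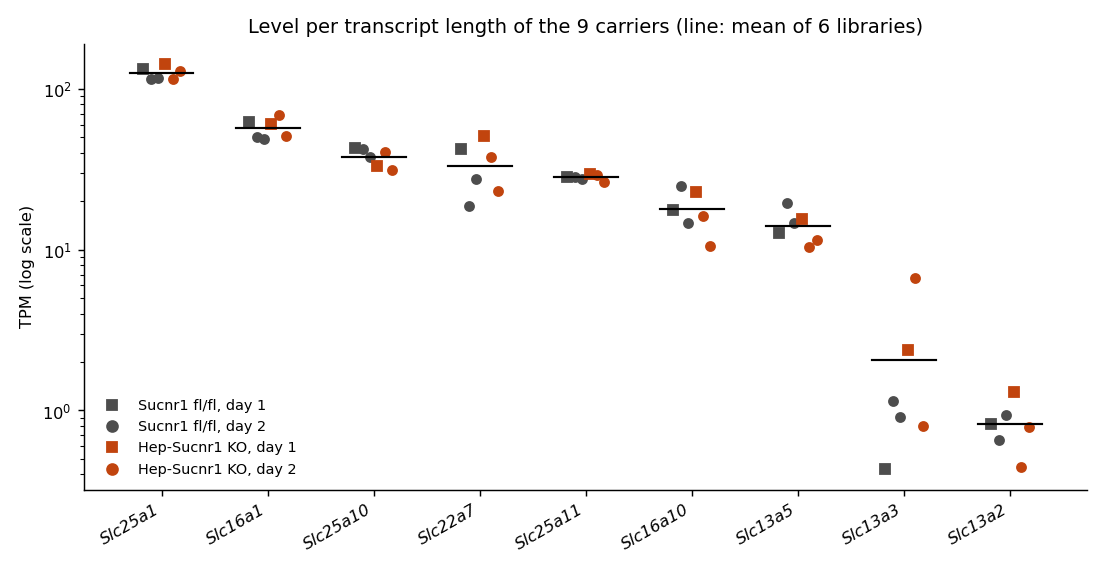
TPM on a log scale (vertical axis) of the 9 carriers in order of their mean, with 1 point per library (grey for Sucnr1 fl/fl, orange for Hep-Sucnr1 KO, squares for day 1, circles for day 2) and a line at the mean of 6 libraries. Slc25a1 lies between 115 and 142 TPM, whereas the points of Slc13a3 spread from 0.431 to 6.62 TPM.

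Between the genotypes, 6 of the 9 carriers had a higher and 3 a lower fitted level in Hep-Sucnr1 KO than in control hepatocytes. Their median log2 fold change was 0.08, where the median of all genes tested was 0.00. All 9 members passed the filter on low counts. By edgeR's quasi-likelihood test with extraction day in the model, neither a member nor any other of the 15105 genes tested passed an FDR of 0.05 (0% called). At an unadjusted p below 0.05 the test marked 1 member, Slc13a3, and 563 genes (3.73%) of the whole table. DESeq2's Wald test called 7 genes, and no member was among them. None of the 9 members had groups that did not overlap, a pattern shown by 10.6% of all genes tested. With each library left out in turn, 5 or 6 members were higher.

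**Figure D3:**
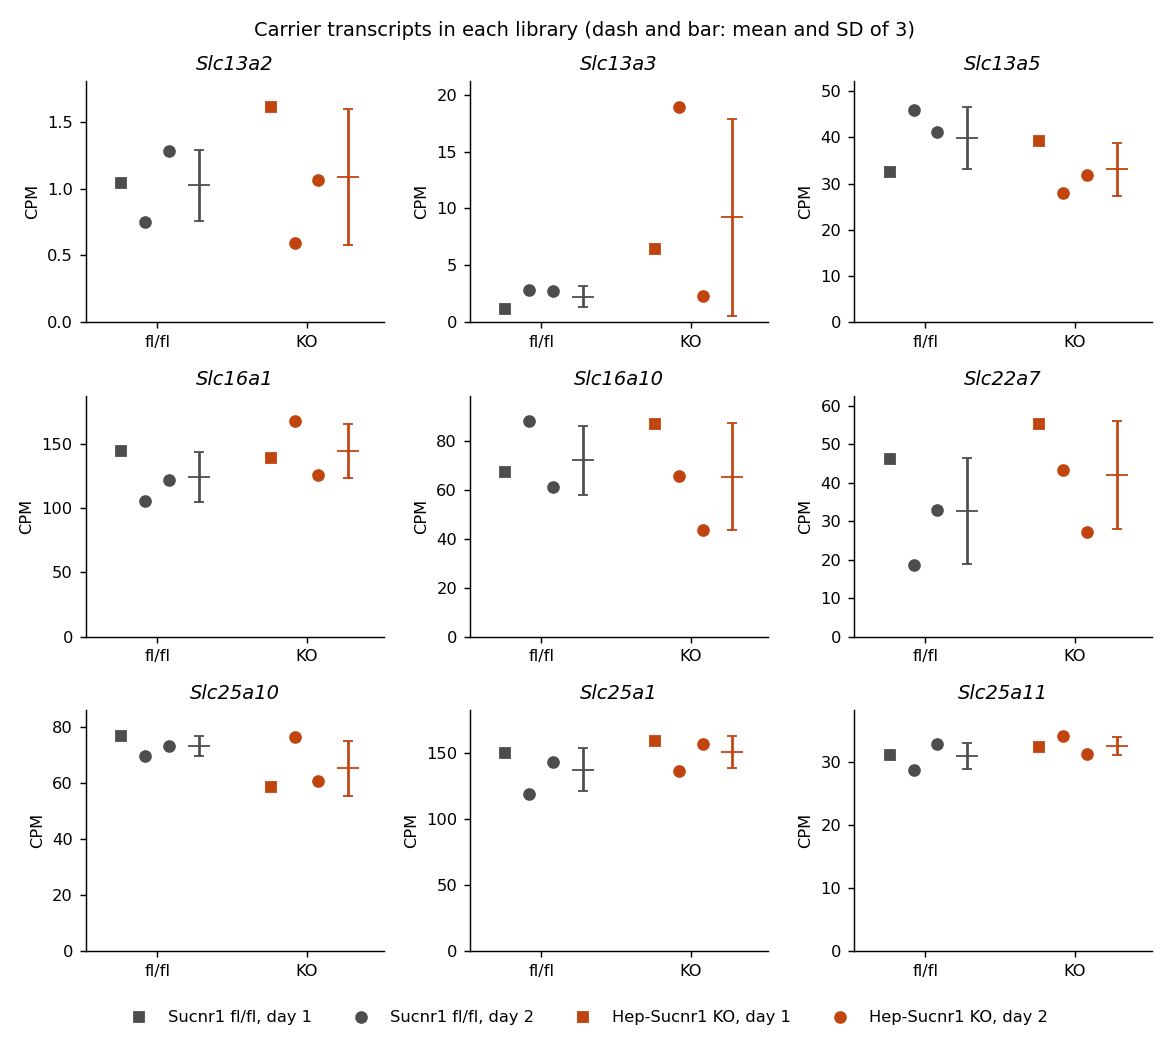
CPM (vertical axes, from 0) of each carrier in the 3 Sucnr1 fl/fl (grey) and 3 Hep-Sucnr1 KO libraries (orange), with squares for extraction day 1 and circles for day 2, and a dash and bar for the mean and SD of 3. The 2 groups overlap in all 9 panels, and the Slc13a3 panel is the one with a single library, Hep-Sucnr1 KO replicate 4 at 18.9 CPM, far above the rest.

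Slc13a3 (ENSMUSG00000018459, chromosome 2 of GRCm38 from 165405028 to 165473230) encodes the high-affinity sodium-dicarboxylate cotransporter, which takes up succinate and oxoglutarate. Its counts were 45, 95 and 82 in control replicates 1, 2 and 3 and 202, 641 and 77 in knockout replicates 3, 4 and 5. These were 1.17, 2.86 and 2.7 CPM against 6.39, 18.9 and 2.34 CPM. Replicates 3 and 4 of Hep-Sucnr1 KO lay above all control libraries, whereas replicate 5 lay inside the control range. The exact 95% Poisson intervals of the counts, which cover counting error only, were 32.8 to 60.2 for the lowest library and 592 to 693 for the highest, so counting error was small beside the difference among libraries. The means were 2.24 ± 0.933 CPM in control and 9.22 ± 8.65 CPM in knockout hepatocytes (SD, n = 3 each). A two-sided exact permutation test gave p = 0.3, where 0.1 is the smallest p that 3 against 3 allow.

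In the model with extraction day, the log2 fold change of Slc13a3 was 2.09 (SE 0.66), which is 4.27-fold with a 95% interval of 1.43- to 12.8-fold. The unadjusted p of edgeR's quasi-likelihood test was 0.0185 and the FDR 0.998. The size of this difference depended most on knockout replicate 4. Without it the log2 fold change was 0.95 (unadjusted p = 0.187 by edgeR's quasi-likelihood test), and without replicate 5, the library in the control range, it was 2.64, with an FDR of 0.0536. The direction was kept with each of the 6 libraries left out, and the unadjusted p was over 0.05 when any 1 of control replicates 1 and 3 and knockout replicates 3 and 4 was omitted. Over the 6 libraries the SD of log2 CPM of Slc13a3 was 1.37, larger than that of 98.9% of all genes tested, and its level in the highest library was 16.2 times that in the lowest.

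The study counts Slc13a3 among its pericentral genes. Knockout replicate 4 was highest for both Slc13a3 and the pericentral landmarks as a set, but the other libraries did not follow the same order. Axin2 and Lgr5 were exceptions among the landmarks. They were highest in knockout replicate 3, at 6.17 and 2.79 CPM, against 5.32 and 2.75 CPM in replicate 4. The median deviation of the 10 landmarks from their mean over the libraries, on the log2 scale, was 1.18 in knockout replicate 4 and −0.87 in replicate 5, and it lay between −0.28 and 0.19 in the other 4 libraries. In knockout replicate 3, where Slc13a3 was above all controls, it was 0.10. The median of 10 landmarks of periportal hepatocytes, the cells around the portal vein, was −0.47 in replicate 4, 0.41 in replicate 5 and between −0.29 and 0.27 in the rest. For genotype, 9 of the 10 pericentral landmarks were higher in Hep-Sucnr1 KO, with a median log2 fold change of 0.37. Without replicate 4 only 2 were higher, with a median of −0.39. Without replicate 5 all 10 were higher, with a median of 0.79 and 6 at an unadjusted p below 0.05 by edgeR. In that fit 832 of all 15064 genes tested had such a p, the most with any library left out. With all 6 libraries, none had an FDR below 0.05 by edgeR, and Rhbg, an ammonia carrier, was the only 1 with an unadjusted p below 0.05, at 0.305 ± 0.0745 CPM against 0.836 ± 0.401 CPM (SD, n = 3 each). Cyp2e1, a cytochrome P450 and the most abundant landmark, was at 3430 CPM in replicate 4 and 684 CPM in replicate 5, with 1169 to 2078 CPM in the other libraries. Glul, the glutamine synthetase of the cells next to the central vein, was at 1002 CPM in replicate 4 and at 398 to 646 CPM elsewhere. For the periportal landmarks 3 of 10 were higher in Hep-Sucnr1 KO, 9 of 10 were without replicate 4, and 1 of 10 was without replicate 5. With all libraries, Hsd17b6 was the only periportal landmark with an unadjusted p below 0.05 by edgeR (0.0212, FDR 0.998). Its log2 fold change was −0.99, and −1.48 to −0.74 with single libraries omitted. The urea cycle enzyme Ass1 had a log2 fold change of −0.04, Cyp2f2 −0.16 and Aldh1b1 0.27. The part of lobular position in the values of Slc13a3 was not tested.

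The genes whose pattern over the libraries was most like that of Slc13a3 included 1 of the same landmarks. By the root mean square difference of centred log2 CPM over 6 libraries, the closest of 11715 genes were Mup9 (0.409), Slc1a2 (0.431) and Mup17 (0.465). Slc1a2, a glutamate carrier of pericentral hepatocytes, was at 3.75, 4.90 and 7.45 CPM in control replicates 1, 2 and 3 and at 7.95, 37.7 and 4.83 CPM in knockout replicates 3, 4 and 5. Mup9 and Mup17 encode major urinary proteins, which liver secretes. Mup9 and Mup17 were highest in knockout replicate 4, at 732 and 1907 CPM, and lowest in control replicate 1, at 88.0 and 169 CPM. The Mup genes are near-identical copies, so their counts can include reads of one another.

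**Figure D4:**
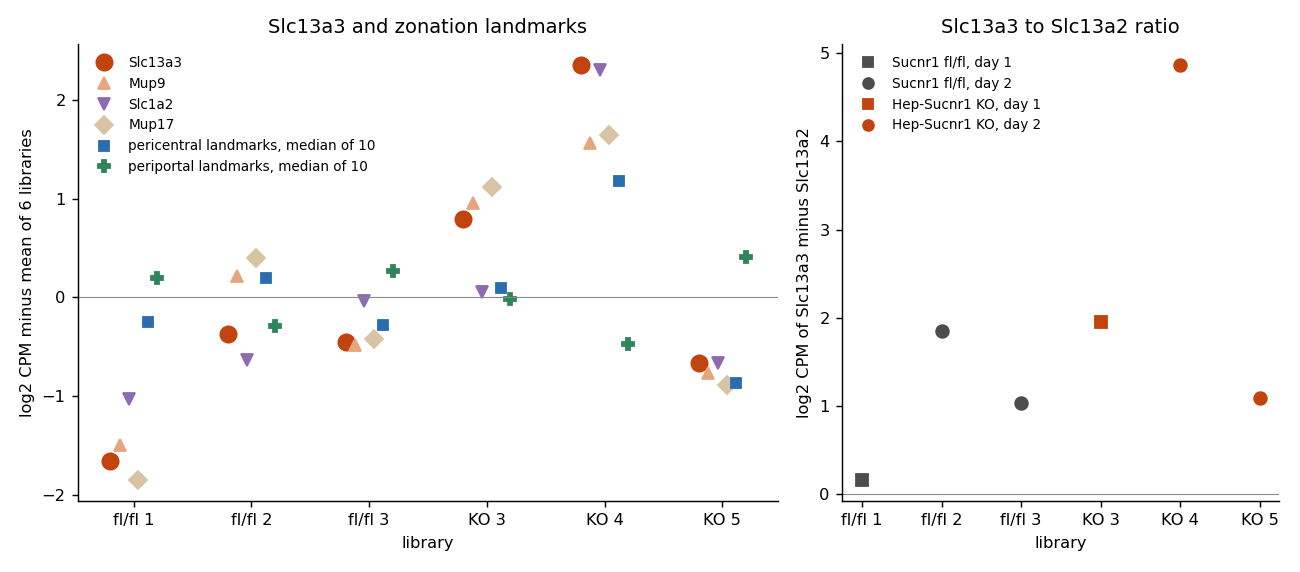
Left, deviation of log2 CPM from its mean over the 6 libraries (vertical axis) for Slc13a3, the 3 genes of the most similar pattern, and the medians of 10 pericentral and 10 periportal landmarks, by library (horizontal axis). Right, log2 ratio of Slc13a3 to Slc13a2 CPM in each library. Hep-Sucnr1 KO replicate 4 is highest for Slc13a3, the pericentral median and the ratio of 4.87, and lowest for the periportal median.

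Slc13a2 (ENSMUSG00000001095, chromosome 11 from 78397087 to 78422217) encodes the low-affinity sodium-dicarboxylate cotransporter, best known from kidney and gut, and the study places it among its periportal genes. It was barely expressed. Its counts were 40, 25 and 39 in control replicates 1, 2 and 3 and 51, 20 and 35 in knockout replicates 3, 4 and 5, or 1.03 ± 0.267 against 1.09 ± 0.512 CPM (SD, n = 3 each). By a two-sided exact permutation test p was 0.9. The Poisson intervals of 20 counts (12.2 to 30.9) and 51 counts (38.0 to 67.1) show how far counting alone limits it. The log2 fold change was 0.03 with a 95% interval from −0.91 to 0.96, and it was −0.11 without knockout replicate 5. Knockout replicate 4, which had the most Slc13a3, had the least Slc13a2. The log2 ratio of Slc13a3 to Slc13a2 CPM was taken within each library from log2 CPM with a prior count of 2. At such low counts the prior moves it somewhat from the plain ratio of CPM. It was 0.16, 1.85 and 1.04 in the control libraries and 1.95, 4.87 and 1.10 in knockout replicates 3, 4 and 5. The ratio thus differed by 1.62 between the groups (two-sided exact permutation test of 3 against 3, p = 0.2), and by 0.51 without replicate 4.

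By the same measure of similarity, the 3 genes closest to Slc13a2 were Gm42793, Gm7367 and Polr2h, a subunit of the RNA polymerases, with root mean square differences of 0.0960, 0.167 and 0.177. Polr2h was at 9.07 CPM in knockout replicate 4 and at 9.66 to 17.8 CPM in the other libraries.

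Slc13a5 (ENSMUSG00000020805, chromosome 11 from 72241989 to 72267222) encodes the sodium-citrate cotransporter, through which hepatocytes take up citrate from blood. It was at 32.5, 45.9 and 41.1 CPM in control replicates 1, 2 and 3 and at 39.3, 28.1 and 31.9 CPM in knockout replicates 3, 4 and 5. The lowest 2 libraries were from Hep-Sucnr1 KO and the highest 2 from Sucnr1 fl/fl, and the groups overlapped through the day 1 libraries, in which the order was the opposite. The log2 fold change was −0.27 (SE 0.18, FDR 0.998 by edgeR's quasi-likelihood test), and the two-sided exact permutation test of 3 against 3 gave p = 0.2. When single libraries were omitted it ranged from −0.55 to −0.13. It was −0.54 without control replicate 1, −0.55 without knockout replicate 3 and −0.55 on day 2 alone (unadjusted p = 0.0116 by edgeR, FDR 0.9996). These are 1 comparison, not separate results. With either day 1 library omitted, the term for day takes up the other, and the genotype difference comes from day 2. On day 1 the single Hep-Sucnr1 KO library was at 121% of the control library, and on day 2 the mean of 2 was at 68.9% of the control mean. The interaction of genotype and extraction day was −0.81 on the log2 scale (SE 0.26, unadjusted p = 0.0198 by edgeR's quasi-likelihood test, FDR 1.00), and with DESeq2 the unadjusted p was 0.0506. No other member reached an unadjusted p below 0.05 for the interaction, which 3.69% of all genes did, and none of the genes tested reached an FDR below 0.05 (0%, against 4 genes with DESeq2). Each genotype had 1 library on day 1, so this difference between days rests on a single pair there.

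Slc16a1 (ENSMUSG00000032902, chromosome 3 from 104638668 to 104658462) encodes MCT1, the main carrier of lactate and pyruvate at the cell surface, through which succinate can also leave cells in its protonated form. Its levels were 144, 106 and 121 CPM in control replicates 1, 2 and 3 and 139, 167 and 126 CPM in knockout replicates 3, 4 and 5. The groups overlapped widely, and the 95% interval of the fold difference ran from 0.898 to 1.53 around a log2 fold change of 0.23 (SE 0.16, FDR 0.998 by edgeR). Slc16a10 (ENSMUSG00000019838, chromosome 10 from 40033532 to 40142258), the carrier of aromatic amino acids and thyroid hormones that the study lists as pericentral, did not share the pattern of Slc13a3. It was at 67.3, 87.8 and 60.9 CPM in the control libraries and at 86.9, 65.5 and 43.5 CPM in knockout replicates 3, 4 and 5, so that replicate 4 lay within the control range and replicate 5 was the lowest of all. The 95% interval of its fold difference was 0.589 to 1.33. Its log2 fold change was −0.18, and its sign depended on the library left out, from −0.46 to 0.06. Without knockout replicate 5 it was 0.057.

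Slc22a7 (ENSMUSG00000067144, chromosome 17 from 46432183 to 46438457) encodes OAT2, an organic anion carrier of the sinusoidal membrane. The day 1 libraries were at 46.2 CPM (control replicate 1) and 55.2 CPM (knockout replicate 3), above all 4 day 2 libraries, which were at 18.7 and 32.9 CPM in control replicates 2 and 3 and at 43.2 and 27.3 CPM in knockout replicates 4 and 5. Slc22a7 was the only member whose days did not overlap, which 14.8% of all genes tested did. In the model, day 2 was 0.596 times day 1, with a 95% interval of 0.385 to 0.923 (log2 fold change −0.75, SE 0.27, unadjusted p = 0.0245 and FDR 0.553 by edgeR's quasi-likelihood test). When single libraries were omitted it ranged from −0.93 to −0.62, and its unadjusted p was over 0.05 without either day 1 library, at 0.151 without control replicate 1 and 0.0657 without knockout replicate 3 (edgeR). For genotype the log2 fold change was 0.39 (SE 0.25, FDR 0.998), with an interval of the fold difference from 0.864 to 1.98.

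Over the 9 members, 3 were higher and 6 lower on day 2, with a median log2 difference of −0.14 where that of all genes was 0.02. At an unadjusted p below 0.05, Slc22a7 was the only member marked by edgeR, against 7.49% of all genes. No gene had an FDR below 0.05 for extraction day by edgeR (0%), whereas DESeq2 called 225 genes, and no member was among them. Markers of other cell types also differed between the days. Of the 10 Kupffer cell markers 9 were higher on day 2, 7 of them at an unadjusted p below 0.05, with a median log2 difference of 2.06, summed levels of 36.5 and 72.8 CPM on day 1 and of 49.8 to 155.5 CPM on day 2, and no marker at 0 in any library. The summed levels of the days overlapped. Without knockout replicate 3 or control replicate 3 no Kupffer cell marker had an unadjusted p below 0.05, with medians of 1.03 and 1.74, and without control replicate 1 there were 9, with a median of 3.53. All 7 neutrophil and erythroid markers tested were higher on day 2 (median 1.46), 1 of them at an unadjusted p below 0.05, and the median was 0.43 without knockout replicate 3. All 5 stellate cell markers tested were lower on day 2 (median −0.71), 2 of them at an unadjusted p below 0.05. Without control replicate 1, 2 of the 4 tested were lower and 2 higher, with a median of −0.14. The part of these cells in the level of Slc22a7 was not tested. The genes with the pattern most like Slc22a7 were Ighm (root mean square difference of 0.183), the heavy chain of immunoglobulin M, and the unannotated genes C730027H18Rik (0.198) and 1810008I18Rik (0.249). Ighm was at 23.1 and 27.4 CPM on day 1 and at 9.87 to 31.2 CPM on day 2.

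**Figure D5:**
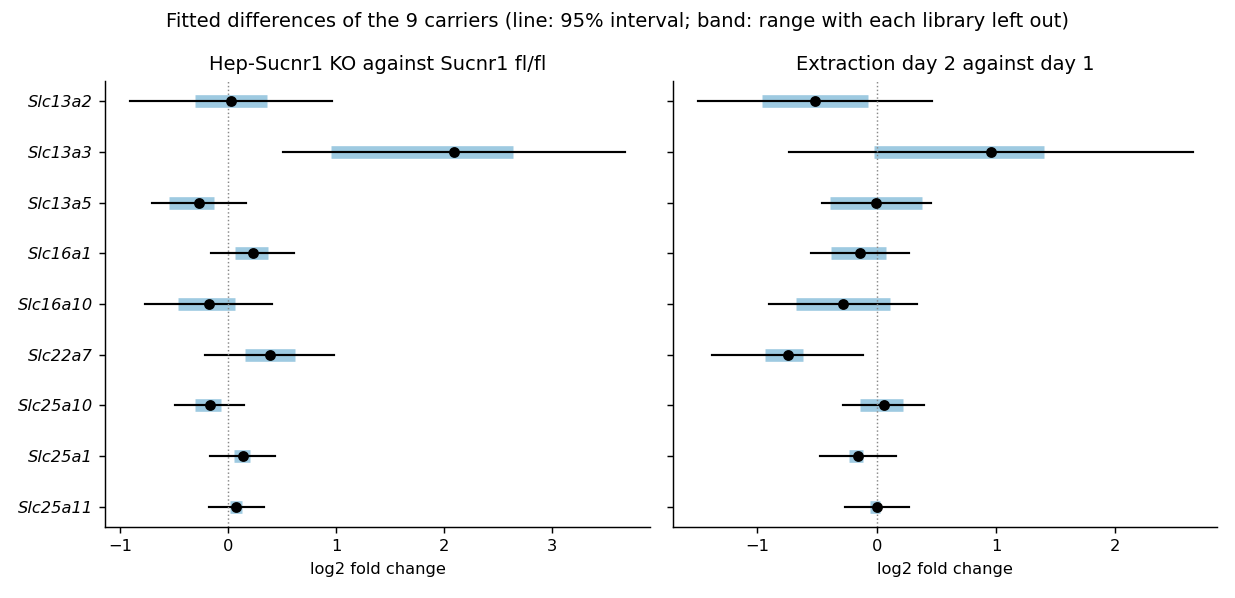
Log2 fold changes (horizontal axes) of the 9 carriers for Hep-Sucnr1 KO against Sucnr1 fl/fl (left) and extraction day 2 against day 1 (right), with dots for the fitted value, lines for its 95% interval and bands for the range with each library left out in turn. The interval of Slc13a3 lies above 0 for genotype, that of Slc22a7 lies below 0 for day, and all others include 0.

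Of the 9 members, the mitochondrial carriers had the 3 smallest SDs of log2 CPM over the libraries. Slc25a11 (ENSMUSG00000014606, chromosome 11 from 70644196 to 70647479), the oxoglutarate carrier, was at 31.1, 28.8 and 32.8 CPM in control replicates 1, 2 and 3 and at 32.3, 34.1 and 31.3 CPM in knockout replicates 3, 4 and 5. The groups overlapped, and 4.78% of tested genes had a smaller SD of log2 CPM. Its means were 30.9 ± 2.02 CPM in control and 32.5 ± 1.41 CPM in knockout hepatocytes (SD, n = 3 each). By a two-sided exact permutation test p was 0.4. The 95% interval of the fold difference between the genotypes was 0.884 to 1.26. Slc25a11 overlaps Rnf167, a ubiquitin ligase gene on the opposite strand with 426 to 648 counts per library, and the counting used strand.

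Slc25a1 (ENSMUSG00000003528, chromosome 16 from 17925223 to 17928219), the citrate carrier, was at 150, 119 and 143 CPM in control replicates 1, 2 and 3 and at 159, 137 and 157 CPM in knockout replicates 3, 4 and 5. The highest 2 libraries were both Hep-Sucnr1 KO, but the third lay below 2 control libraries. The log2 fold change was 0.14 (SE 0.13, FDR 0.998 by edgeR), and the 95% interval of the fold difference was 0.892 to 1.35. Slc25a10 (ENSMUSG00000025792, chromosome 11 from 120491840 to 120499187), the dicarboxylate carrier through which succinate leaves mitochondria, was at 76.7, 69.7 and 73.4 CPM in the control libraries and at 58.7, 76.4 and 60.6 CPM in knockout replicates 3, 4 and 5. Replicates 3 and 5 lay below all controls and replicate 4 was within 1 CPM of the highest control. The log2 fold change was −0.17 (SE 0.13, FDR 0.998 by edgeR), with a range of −0.30 to −0.06 when single libraries were omitted.

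The other mitochondrial carriers showed no shared direction. Of 36 listed, 34 were tested, with 16 higher and 18 lower in Hep-Sucnr1 KO, a median log2 fold change of −0.01 and none at an unadjusted p below 0.05 by edgeR. Without knockout replicate 4 the split was 11 higher and 23 lower, and without replicate 5 it was 21 and 13. The iron carrier Slc25a37 had the lowest unadjusted p, 0.0609 by edgeR's quasi-likelihood test, at 113 ± 2.76 CPM in control and 96.6 ± 2.80 CPM in knockouts (SD, n = 3 each), without overlap of the groups (FDR 0.998). The 2 most abundant, Slc25a5 and Slc25a47, had log2 fold changes of 0.13 and −0.28.

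Among the enzymes that make or use citrate, succinate or malate, all 18 were tested, with 14 higher and 4 lower in Hep-Sucnr1 KO and none at an unadjusted p below 0.05 by edgeR. The median log2 fold change was 0.08, where that of all genes was 0.00. Without control replicate 2 the split was 10 higher and 8 lower, and without knockout replicate 4 or 5 it was 13 and 5. The cytosolic isocitrate dehydrogenase Idh1 was at 180 ± 7.99 CPM in control and 200.5 ± 3.60 CPM in knockout hepatocytes (SD, n = 3 each), with groups that did not overlap and an FDR of 0.998. Its mitochondrial relative Idh2 was at 42.8 ± 6.49 against 50.5 ± 9.08 CPM. The most abundant by TPM were the malate dehydrogenase Mdh1 (272 TPM) and Sdhd, a subunit of succinate dehydrogenase (157 TPM), with log2 fold changes of 0.17 and 0.10.

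Of the other monocarboxylate carriers and their chaperones, 11 of 16 were tested, with 9 higher, 2 lower and none at an unadjusted p below 0.05 by edgeR. Without knockout replicate 4 the split was 6 higher and 4 lower, and without replicate 5 it was 9 and 2. Bsg, which escorts MCT1 to the cell surface, was by far the most abundant, at 780 ± 281 CPM in control and 939 ± 230 CPM in knockouts (SD, n = 3 each). Its lowest level, 456 CPM, was in control replicate 2, the library with the lowest Slc16a1. The second chaperone of the family, Emb, was at 0.276 ± 0.163 and 0.465 ± 0.242 CPM, and the rare carrier Slc16a13 at 0.294 ± 0.189 and 0.630 ± 0.285 CPM (SD, n = 3 each). Slc16a6, which has been described as an exporter of ketone bodies, had a log2 fold change of −0.02.

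For the other anion carriers, from SLC13, SLC22 and SLC26, 4 of 10 were tested, with 3 higher and 1 lower and none at an unadjusted p below 0.05. Without knockout replicate 4 the split was 1 higher and 3 lower, and without replicate 5 it was 3 and 1. The sulfate carrier Slc26a1 was at 130 ± 35.9 CPM in control and 108 ± 14.8 CPM in knockout hepatocytes (SD, n = 3 each), Slc22a30 had a log2 fold change of 0.05, and Slc13a4 was at 0.405 ± 0.254 against 0.674 ± 0.367 CPM. Of 6 transcription factors with known targets among the members, 2 were higher and 4 lower, again with none at an unadjusted p below 0.05 by edgeR, and without knockout replicate 4 all 6 were lower, whereas without replicate 5 it was 4 higher and 2 lower. Creb1, the cyclic AMP response factor, was at 22.1 ± 1.13 CPM in control and 19.3 ± 0.229 CPM in knockouts, with groups that did not overlap (log2 fold change −0.20, FDR 0.998). Hnf4a, a master regulator of hepatocytes, had a log2 fold change of 0.19, with its highest level, 313 CPM, in knockout replicate 4 and its lowest, 152 CPM, in replicate 5, and Srebf1, a regulator of lipid synthesis, had one of 0.00.

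No list of cell type markers had a gene with an FDR below 0.05 for genotype by edgeR. All 10 Kupffer cell markers were lower in Hep-Sucnr1 KO, with a median log2 fold change of −0.38 and none at an unadjusted p below 0.05 by edgeR. Without control replicate 1 or knockout replicate 3, 9 of the 10 were higher. Both omissions leave the same comparison, that of the day 2 libraries. Of the 10 sinusoidal endothelial markers 9 were lower (median −0.25), and 3 of 9 were lower without control replicate 1. Of the stellate cell markers 5 of 10 were tested and 4 were lower, with Reln at an unadjusted p below 0.05, while Des, Col3a1, Hand2 and Ngfr were at 0 in at least 1 library. Of 7 cholangiocyte and 7 neutrophil and erythroid markers tested, 4 were lower in each list, and of the 10 hepatocyte markers 5 were. Without knockout replicate 4, 3 of the 7 cholangiocyte markers were lower, and without replicate 5 it was 5 of 7. Of the 10 hepatocyte markers, 4 were lower without replicate 4 and 8 without replicate 5. Their part in the levels of the carriers was not tested.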

How the data were processed

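The 6 libraries hold mRNA of cultured mouse hepatocytes, 3 Sucnr1 fl/fl and 3 Hep-Sucnr1 KO. The authors trimmed the paired reads with Trim Galore 0.6.7, aligned them to GRCm38 with STAR 2.7.10a and counted read pairs per gene and strand with featureCounts, and deposited raw counts. How pairs that match several genes were handled is not given in the sources used here.

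Genes with a mean normalized count above 5 (15105 of 25184) were fitted with edgeR 4.0.16 in R 4.3.3 by the quasi-likelihood test with TMM scaling and terms for day and genotype. FDR values are Benjamini-Hochberg adjusted over the 15105 genes. DESeq2 1.42.0 was the alternative test. CPM were scaled with TMM factors, log2 CPM used a prior count of 2, and TPM used exon lengths of GENCODE on GRCm38. Gene names were found for 25130 identifiers. Exact tests were run with SciPy 1.17.1 in Python 3.11.15. The fit was tested on simulated data.

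The study gives the comparison as 3 against 3 under the names of the mouse genotypes, but the labels do not say that each library is a separate mouse, so p-values measure the spread between these samples, which may be technical. The members and gene lists were chosen with earlier results of these data known. Besides the 9 members and Sucnr1, the rule for named genes took from each pathway list the 2 genes of lowest unadjusted genotype p and the 2 of highest level, and the 3 genes of most similar pattern for each of the 3 most variable members with a mean of at least 1 CPM. A gene that this rule took is not reported here. Counts over lists with each library left out were chosen after seeing the data. For genotype, leaving out either day 1 library gives the same comparison, because the term for day takes up the other.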

Additional observations from a re-analysis of the deposited data

How the results depend on the processing

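No paired analysis was possible because the labels name no pairs of libraries across the genotypes. Replicate numbers do not match libraries between them, and extraction day was a term of the model. Of 310 alternative values, 278 kept their direction and side of the threshold, 26 changed sign, and no member passed an FDR of 0.05 under any alternative. DESeq2 called 7 genes for genotype, 225 for extraction day and 4 for their interaction, where edgeR called none. For extraction day, edgeR called 122 genes with no filter on low counts, and between 0 and 29 with each library left out, the 29 being without Sucnr1 fl/fl replicate 2. For genotype it called between 0 and 0. Slc13a3 ranged from 0.95 to 2.64 for genotype with each library left out. A further term grouped the libraries by low or high index number, which splits Sucnr1 fl/fl replicates 1 and 2 from the other 4 libraries. This grouping was made here and is not a batch that the study names. With it the log2 fold change was 2.05 for Slc13a3 (unadjusted p = 0.137 by edgeR), −0.56 for Slc13a2, 2.96e-05 for Slc16a10 and −0.0232 for Slc25a11. On day 2 alone it was −0.30 for Slc13a2. With each library left out, the genotype difference ranged from −0.30 to 0.36 for Slc13a2 and from −0.46 to 0.0627 for Slc16a10, and that of extraction day from −0.0242 to 1.40 for Slc13a3 (lowest without Hep-Sucnr1 KO replicate 4), from −0.39 to 0.38 for Slc13a5, from −0.38 to 0.0762 for Slc16a1, from −0.68 to 0.11 for Slc16a10, from −0.14 to 0.22 for Slc25a10 and from −0.0534 to 0.0240 for Slc25a11. For extraction day, Slc13a5 was at 0.0321 with no genotype in the fit, and Slc25a11 at −0.015 with DESeq2, −0.015 with DESeq2 size factors, −0.016 with library size alone and −0.018 with no filter. The causes were not tested. The log2 ratio of Slc13a3 to Slc13a2 differed by 0.51 to 2.39 between the groups with each library left out. With 3 libraries a genotype, the smallest exact p is 0.1, and the low counts of Slc13a2 limit its precision.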
